A study of Mus musculus with 6 samples.

Results

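The immunoglobulin heavy chain locus (Igh, on chromosome 12), the kappa light chain locus (Igk, on chromosome 6) and the lambda light chain locus (Igl, on chromosome 16) were examined in ATAC-seq peak lists of pc-BMACs, plasma cells and immature B cells from mouse bone marrow. ATAC-seq marks open chromatin by the places where a transposase can insert sequencing adapters. Members were all merged regions, made from the peaks of the 6 libraries wherever they overlapped by at least 1 bp, that overlapped mm10 positions chr12:113200000-116010000 for Igh, chr6:67500000-70760000 for Igk or chr16:18990000-19300000 for Igl. This choice used position alone and gave 343 of the 69171 merged regions, 42 in Igh, 269 in Igk and 32 in Igl.

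All cells came from naive Adig mice on the Balb/c background, which carry a green fluorescent reporter of Aire, the autoimmune regulator gene. Flow sorting took AireGFP+B220-CD138+TACI+ cells for the pc-BMACs, AireGFP-B220-CD138+TACI+ cells for the plasma cells and AireGFP-B220+CD138-TACI-IgM+ cells for the immature B cells. Each population had 2 libraries, from 2000 to 15000 sorted cells each, and the labels do not say that these were separate animals, so their spread may be technical. The reads of Balb/c mice were placed on mm10, the C57BL/6J sequence, and these loci differ between mouse strains. How far that kept reads out of the peak lists was not tested.

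An immunoglobulin chain is encoded by a variable (V), a joining (J) and, in the heavy chain, a diversity (D) segment, which are cut and rejoined in developing B cells, followed by a constant gene. Ighm and Ighd encode the constant parts of IgM and IgD, Igkc that of the kappa chain, and the other heavy chain constant genes are reached by class switching, which deletes the DNA between. Transcription of the rearranged genes is driven by V segment promoters, in which an octamer motif bound by Oct factors is a core element, together with enhancers in the intron between J and C and on the 3' side of the constant genes. Plasma cells secrete immunoglobulin in bulk, whereas immature B cells carry it on the surface and have only lately finished light chain rearrangement.

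The RefSeq gene table of the GRCm38 assembly, which mm10 names, held 396 immunoglobulin segments, and none of them has an entry in the RefSeq promoter table. That table does hold windows of 250 bases before to 50 bases after the start of 4 non-coding RNA genes that overlap a called region of the loci. They are printed because they show the sequence under regions with different calls: Gm30211 on the 3' side of Igkc, Gm46961 between the V and J kappa segments, LOC108169192 among the V kappa segments and Gm35545 between lambda segments. Each is written 5' to 3' on the strand of its gene, from RefSeq, build GRCm38.p6, in lower case, with capitals for the 7 letters ATGCAAA of the octamer or their reverse complement TTTGCAT.
Gm30211: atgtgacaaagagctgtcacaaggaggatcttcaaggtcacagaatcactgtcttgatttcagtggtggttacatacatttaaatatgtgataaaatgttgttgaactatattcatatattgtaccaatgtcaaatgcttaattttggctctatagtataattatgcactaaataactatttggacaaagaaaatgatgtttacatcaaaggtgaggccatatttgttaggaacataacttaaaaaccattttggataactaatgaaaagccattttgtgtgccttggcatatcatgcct
Gm46961: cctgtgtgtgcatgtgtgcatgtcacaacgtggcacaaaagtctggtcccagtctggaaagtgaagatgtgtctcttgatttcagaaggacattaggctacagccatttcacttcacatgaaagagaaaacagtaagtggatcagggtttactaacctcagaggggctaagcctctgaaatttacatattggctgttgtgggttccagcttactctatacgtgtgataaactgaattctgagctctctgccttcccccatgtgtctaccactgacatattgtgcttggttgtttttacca
LOC108169192: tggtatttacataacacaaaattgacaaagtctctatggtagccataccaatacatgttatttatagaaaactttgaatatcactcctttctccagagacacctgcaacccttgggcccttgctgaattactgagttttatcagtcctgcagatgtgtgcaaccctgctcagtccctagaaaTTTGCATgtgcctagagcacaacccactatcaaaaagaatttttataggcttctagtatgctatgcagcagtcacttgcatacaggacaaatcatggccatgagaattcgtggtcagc
Gm35545: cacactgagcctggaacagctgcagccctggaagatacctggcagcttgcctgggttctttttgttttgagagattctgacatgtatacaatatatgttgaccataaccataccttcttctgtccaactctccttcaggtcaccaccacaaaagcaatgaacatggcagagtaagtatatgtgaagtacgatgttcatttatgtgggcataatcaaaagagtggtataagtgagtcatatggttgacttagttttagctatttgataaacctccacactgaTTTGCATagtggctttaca
The first lies at chr6:70728963-70729262 on the plus strand, the second at chr6:70718827-70719126 on the minus strand, the third at chr6:68880650-68880949 on the minus strand and the last at chr16:19218252-19218551 on the plus strand. The motif was found in 2 of the 4 windows, LOC108169192 and Gm35545, once each and as TTTGCAT. The promoter table held 14 windows inside the loci, called or not, and 2 of these (14.3%) held the motif. Of all 32851 promoter windows there, 1520 (4.63%) held it on either strand. The Gm30211 window lay wholly under a peak of pc-BMACs 1 and under no peak of the other 5 libraries. The Gm46961 window was under no peak in pc-BMACs 1 and 2 or plasma cells 2, and wholly covered in plasma cells 1 and both immature B cell libraries. Peaks covered 251 and 280 bases of the LOC108169192 window in plasma cells 1 and 2, 247 bases in immature B cells 1, and none in immature B cells 2 or either pc-BMAC library. The Gm35545 window was wholly covered in both immature B cell libraries and uncovered in the pc-BMAC and plasma cell libraries. A match to these letters is a description of the sequence and not a mapped binding site.

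The deposited lists held 34070 to 38607 peaks in pc-BMACs, 36723 to 37821 in plasma cells and 46534 to 51643 in immature B cells, and read depth is unknown. A region without a peak is therefore not shown to be closed, and fewer open cells cannot be told apart from weaker opening per cell. Of the 6 plasma cell markers examined, all had a peak within 1 kb in the pc-BMAC and plasma cell libraries and 5 in the immature B cell libraries. The B cell markers Ms4a1, Cd22, Pax5, Ebf1 and Ptprc, and Aire itself, had a peak in every library, so their presence did not separate the populations. Of 5 erythroid markers, all had a peak in plasma cells 1 and 1 in each other library, and of 4 NK cell markers none had a peak in pc-BMACs and 2 in each other library. Of 5 T cell markers 4 and 3 had a peak in pc-BMACs and 3 in each other library, and of 5 myeloid and dendritic cell markers 2 to 4 had one across the 6 libraries. The part of these other cell types in the results was not tested.

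Fewest immunoglobulin regions were called in pc-BMACs, more in plasma cells and most in immature B cells. Of the 343 regions, pc-BMACs 1 and 2 had peaks at 64 and 56, with 110 and 123 in plasma cells 1 and 2, compared with 321 and 224 in immature B cells 1 and 2. The 3 ranges did not overlap. As shares they were 18.7% and 16.3% in pc-BMACs, 32.1% and 35.9% in plasma cells, compared with 93.6% and 65.3% in immature B cells. Of all merged regions, 54.7% and 47.4% were called in pc-BMACs, 51.8% and 50.5% in plasma cells, compared with 74.1% and 64.8% in immature B cells. Immature B cells thus called most in the whole series too, and the share of immature B cells 2 was near its background. Peaks in the loci made up 0.176% and 0.173% of the lists in pc-BMACs, 0.317% and 0.368% in plasma cells, compared with 0.622% and 0.509% in immature B cells, so the order also held relative to the length of each list.

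The kappa locus carried this order. Of its 269 regions 34 and 26 were called in pc-BMACs, 78 and 88 in plasma cells, compared with 259 and 177 in immature B cells. In the heavy chain locus 13 and 11 of 42 regions were called in pc-BMACs, 13 and 17 in plasma cells, compared with 34 and 27 in immature B cells, and the pc-BMAC and plasma cell ranges met. The lambda locus was nearest to even across populations: of its 32 regions, pc-BMACs had 17 and 19, with 19 and 18 in plasma cells, compared with 28 and 20 in immature B cells. Called in all 6 libraries were 36 of the 343 regions (10.5%), against 29.6% of all merged regions, and 15 when a call required peaks over at least 50% of the region. Of the 36, 5 lay in Igh, 19 in Igk and 12 in Igl. Fewer than in the whole series were therefore shared by all libraries in Igk, and more in Igl, where 12 of 32 were.

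**Figure D1:**
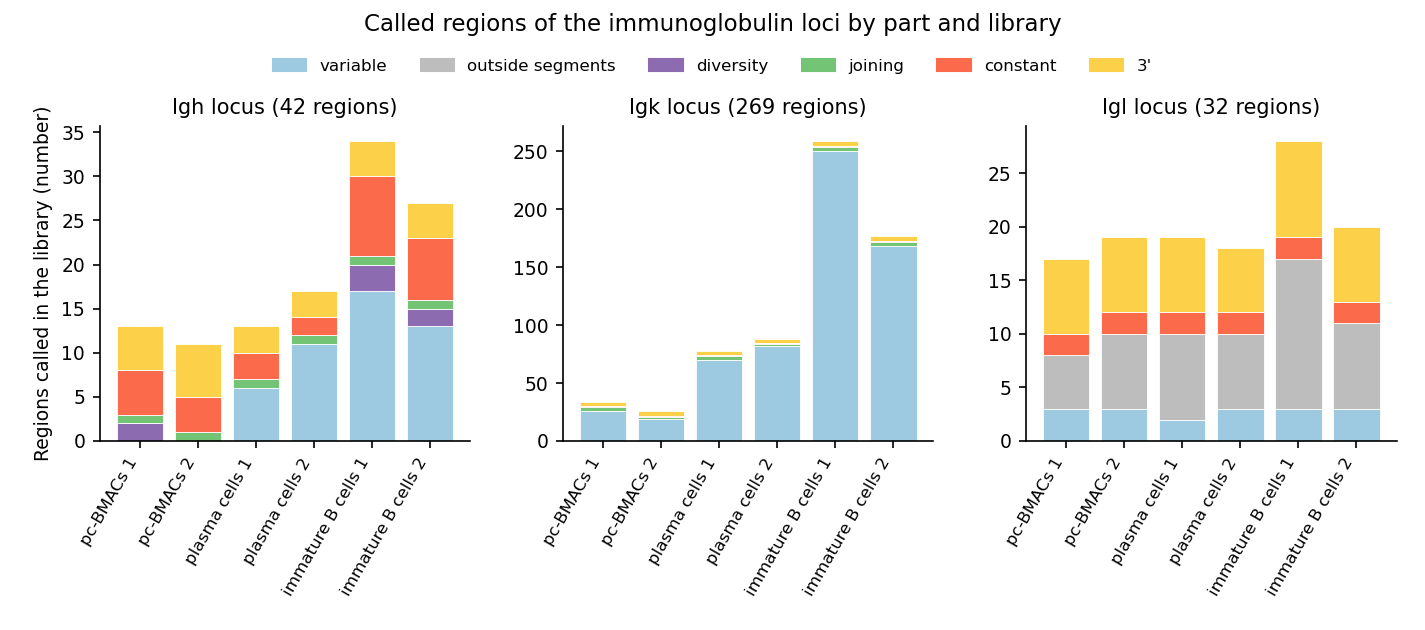
Number of regions called in each library (y axis) for the Igh, Igk and Igl loci, with the bars split by part of the locus. In Igk the pc-BMAC libraries reach 34 and 26, the plasma cell libraries 78 and 88 and the immature B cell libraries 259 and 177, with variable regions making up 26 and 19 of these in pc-BMACs, 70 and 82 in plasma cells, compared with 250 and 168 in immature B cells, while the Igl bars lie between 17 and 28.

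Regions called in plasma cells were almost all called in immature B cells as well, but so were the regions of the loci in general. Of the 137 regions with a peak in at least 1 plasma cell library 131 (95.6%) had one in at least 1 immature B cell library, against 80.5% for all merged regions. Of the 71 regions called in at least 1 pc-BMAC library 57 (80.3%) were called in an immature B cell library, against 70.9% of all merged regions, and 54 (76.1%) in a plasma cell library, against 75.0%. Over the loci as a whole 327 of 343 regions were called in an immature B cell library. That share was near the 95.6% of plasma cell regions and above the 80.3% of pc-BMAC regions. In the other direction, pc-BMACs had a peak in 54 of the 137 plasma cell regions (39.4%) and in 57 of the 327 immature B cell regions (17.4%), against 74.7% and 52.2% over all merged regions.

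Called in both libraries of one population and neither library of the other, 5 of 154 regions belonged to pc-BMACs only (3.25%) and 49 to plasma cells only (31.8%) when these populations were compared. The background over all merged regions was 8.42% for pc-BMAC-only and 9.46% for plasma-cell-only calls. Over the loci together, the plasma-cell-only share was thus above the background and the pc-BMAC-only share below it. This held in Igk, where 1 region was pc-BMAC-only (0.952%) and 42 plasma-cell-only (40%) of 105. In Igh the counts were 4 (14.8%) and 6 (22.2%) of 27, both shares above the background. In Igl they were 0 and 1 (4.55%) of 22, both below it. The 5 pc-BMAC-only regions became 14 without pc-BMACs 2, 8 without pc-BMACs 1 and 8 without plasma cells 1. The 49 plasma-cell-only regions became 21 of 107 (19.6%, background 7.2%) when a call required peaks over at least 50% of the region. With 2 libraries against 2 the smallest two-sided exact permutation p is 0.333, so no p over libraries is given.

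Between pc-BMACs and immature B cells, 6 of 341 regions were pc-BMAC-only (1.76%, background 10.3%) and 164 immature-B-only (48.1%, background 24.1%). Igk held 2 (0.746%) and 143 (53.4%) of 268 regions, and Igh 2 (4.88%) and 17 (41.5%) of 41. In Igl they were 2 (6.25%) and 4 (12.5%) of 32, so the immature-B-only share was below the background there. Without immature B cells 2 the 164 became 266, and without pc-BMACs 2 the 6 became 11. With equal numbers of the widest peaks from each library the 164 became 85 of 210 (40.5%, background 15.9%). Between plasma cells and immature B cells, 3 of 333 regions were plasma-cell-only (0.901%, background 6.35%) and 96 immature-B-only (28.8%, background 19.0%). Of these Igk held 1 (0.376%) and 85 (32%) of 266 regions, and Igh 0 and 9 (24.3%) of 37. In Igl they were 2 and 2 of 30 (6.67% each), near the plasma-cell-only background and below the immature-B-only background. The 96 became 192 without immature B cells 2 and 43 of 211 (20.4%, background 10.2%) with equal numbers of the widest peaks. The 3 became 6 without plasma cells 1, 6 without immature B cells 1 and 5 with the widest peaks. In each of the 3 comparisons the larger count stayed with the same population under every alternative run.

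**Figure D2:**
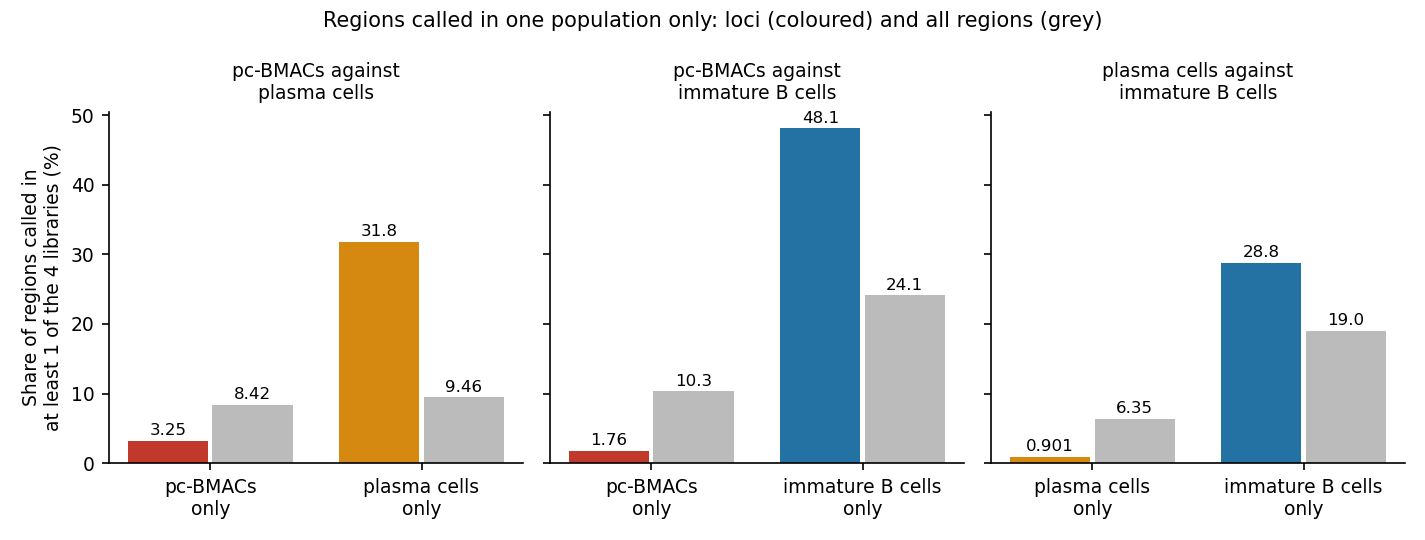
Share of regions (y axis, percent of those called in at least 1 of the 4 libraries compared) called in both libraries of one population and neither of the other, for the immunoglobulin loci in colour and for all merged regions in grey. Plasma-cell-only regions make up 31.8% of the loci against 9.46% of all regions in the comparison with pc-BMACs, and immature-B-only regions 48.1% against 24.1%.

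The most frequent patterns over the 6 libraries were calls in immature B cells 1 alone (96 regions, 28%), in the pair of immature B cell libraries and nowhere else (90, 26.2%, background 14.3%), in every library except those of pc-BMACs (45, 13.1%, background 4.88%) and in all 6 (36). Either immature B cell library alone, with no other, called 99 of the 343 regions, against 9159 of all 69171. Only 2 regions were called in both pc-BMAC libraries alone, against a background of 4.42%, and none in both plasma cell libraries alone, against 1.50%. Every library except those of immature B cells called 3 regions (0.875%, background 3.66%), and every library except those of plasma cells called 3 (0.875%, background 1.06%).

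At Igkc, peak widths ran in the reverse of the order of the call counts, which are a different measure. Its region, chr6:70723309-70730094, spans Igkj4, Igkj5, Igkc and the start of Gm30211, and was called in all 6 libraries. Peaks covered 6672 and 5289 bp of it in pc-BMACs 1 and 2, 4799 and 4645 bp in plasma cells 1 and 2, compared with 1313 and 2112 bp in immature B cells 1 and 2. Both pc-BMAC libraries lay above both plasma cell libraries, as at 51.9% of all merged regions called in these 4 libraries. All 4 lay above the immature B cell libraries. Among regions called in the 4 libraries compared, this held at 17.6% for pc-BMACs and 6.06% for plasma cells. V kappa calls, in contrast, were fewest in pc-BMACs. The mean width was 5980.5 ± 978 bp in pc-BMACs, 4722 ± 109 bp in plasma cells and 1712.5 ± 565 bp in immature B cells (SD, n = 2 each).

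The ratio of pc-BMAC to immature B cell means at Igkc was 3.49, and 196 of the 20468 regions called in all 6 libraries had a higher one; the median was 0.943. For plasma cells over immature B cells it was 2.76, exceeded by 102 of these regions, with a median of 0.814. For pc-BMACs over plasma cells it was 1.27, close to the median of 1.14, and 6827 regions were above it. These widths were compared after the data were seen.

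The peaks also differed in what they covered. The 320 bp of Igkc at chr6:70726435-70726754 were wholly covered in pc-BMACs 1 and 2, plasma cells 1 and 2 and immature B cells 1, and not at all in immature B cells 2, whose 2 peaks in the region lay on either side. In the 2511 bp interval between Igkj5 and Igkc, peaks covered 100% in both pc-BMAC libraries, 100% and 99.1% in plasma cells, compared with 37.0% and 21.3% in immature B cells. Igkj5 was covered in both pc-BMAC libraries and plasma cells 1, and Igkj4 in the pc-BMAC libraries alone. Igkj1, Igkj2 and Igkj3 were under no peak in any library. On the 3' side, the 2458 bp between Igkc and Gm30211 were covered to 100% and 75.0% in pc-BMACs, 76.4% and 74.7% in plasma cells, compared with 2.60% and 64.2% in immature B cells.

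**Figure D3:**
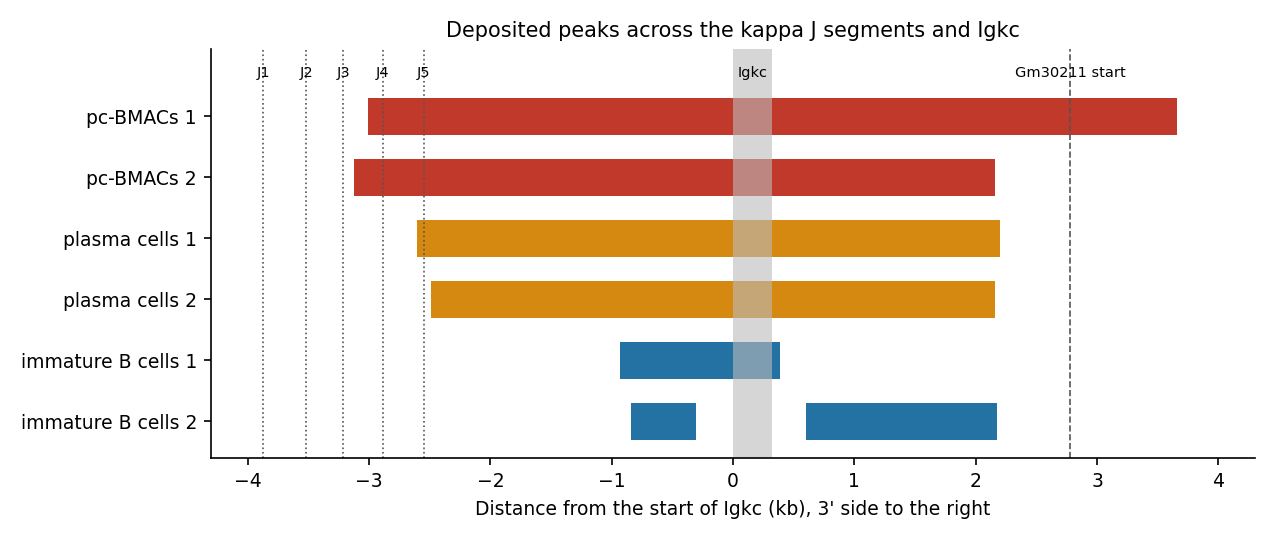
Deposited peaks of each library (bars, one row per library) by distance in kb from the start of Igkc (x axis), with the J kappa segments, Igkc and the start of Gm30211 marked. The pc-BMAC and plasma cell libraries have a single peak of 4645 to 6672 bp across Igkc, and the immature B cell libraries have 1 and 2 shorter ones.

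On the 3' side of Igkc, where enhancers of the kappa locus are known to lie, 5 regions were called. The region at chr6:70735066-70736211, 8.31 kb beyond Igkc, had 839 and 986 bp of peaks in pc-BMACs, 895 and 858 bp in plasma cells, compared with 1140 and 963 bp in immature B cells. At chr6:70742813-70744867, 16.1 kb beyond Igkc, peaks covered 2055 and 1887 bp in pc-BMACs, 1046 and 1585 bp in plasma cells, compared with 1408 and 948 bp in immature B cells. The ranges overlapped at the first of these, and at the second both pc-BMAC libraries lay above the other 4. Among regions called in the 4 libraries compared, pc-BMACs were so wider than plasma cells at 51.9% and than immature B cells at 17.6%. The region at chr6:70747587-70748239 was called with 564 and 650 bp in pc-BMACs and 542 and 596 bp in plasma cells, and in neither immature B cell library. A neighbour at chr6:70753812-70754684 had the opposite calls, 873 and 522 bp in immature B cells and no peak in the other 4 libraries. The region between them, chr6:70751491-70753108, was missing from plasma cells 2 alone, with 866 and 1333 bp in pc-BMACs, 1350 bp in plasma cells 1 and 1303 and 964 bp in immature B cells.

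Between the V kappa segments and Igkc, in the stretch that holds the J segments, 4 further regions were called. Those at chr6:70709206-70710074 and chr6:70716420-70717486 were called in all 6 libraries. The second varied little, with 1029 and 991 bp in pc-BMACs, 1010 and 1008 bp in plasma cells, compared with 927 and 871 bp in immature B cells. At chr6:70718205-70719362, which holds the Gm46961 window printed above, peaks covered 641 bp in plasma cells 1, 1153 and 1105 bp in immature B cells 1 and 2, and none in plasma cells 2 or in pc-BMACs. The region at chr6:70714305-70714669 was called in pc-BMACs 1 (328 bp) and in both immature B cell libraries (320 and 365 bp).

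The V kappa stretch held 259 regions, of which 26 and 19 were called in pc-BMACs, 70 and 82 in plasma cells, compared with 250 and 168 in immature B cells. No 2 populations overlapped. Of the 90 called in at least 1 plasma cell library 88 (97.8%) were also called in an immature B cell library, as were 254 of all 259. Only 3 of the 259 lay outside the array of V segments, and 150 overlapped a V segment. Cut into 3 equal lengths, the stretch nearest Igkc had 5 and 5 of 81 regions called in pc-BMACs, 22 and 28 in plasma cells, compared with 79 and 55 in immature B cells. The middle stretch had 7 and 7 of 98 in pc-BMACs, 18 and 23 in plasma cells, compared with 95 and 55 in immature B cells. The farthest stretch had 14 and 7 of 80 in pc-BMACs, 30 and 31 in plasma cells, compared with 76 and 58 in immature B cells. The order of the populations was therefore the same along the array.

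**Figure D4:**
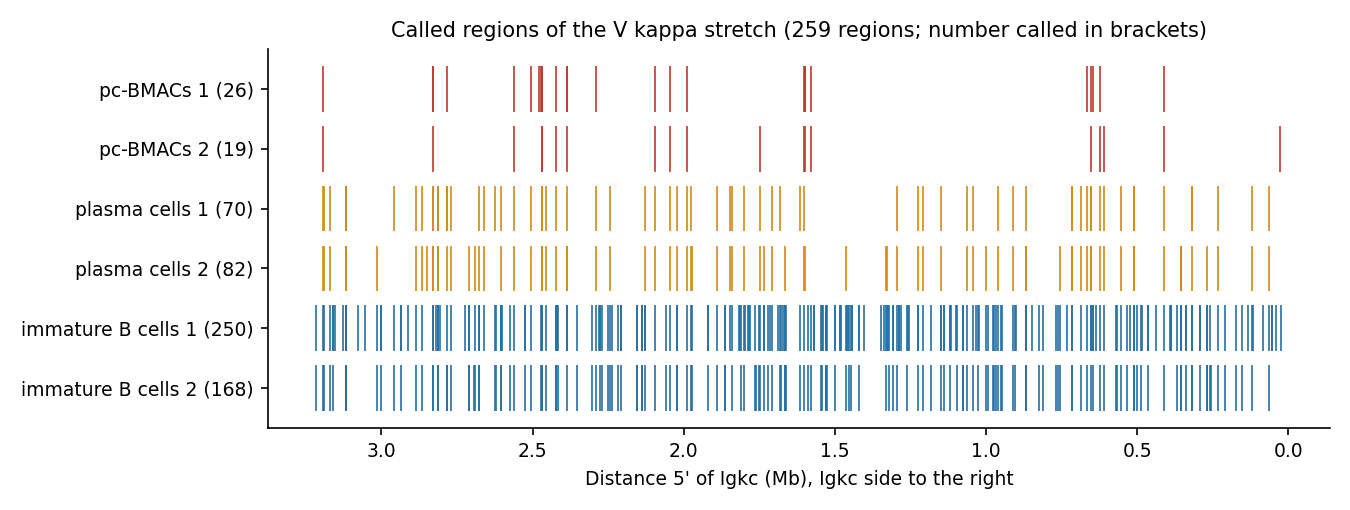
Positions of called V kappa regions in each library, as distance 5' of Igkc in Mb (x axis, Igkc side to the right), 1 tick per region and 1 row per library. The 26 and 19 calls of pc-BMACs are spread along the array, as are the 70 and 82 of plasma cells and the 250 and 168 of immature B cells.

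Counted by segment, 14 and 12 of the 162 V kappa segments had a peak within 500 bp in pc-BMACs, 44 and 52 in plasma cells, compared with 105 and 89 in immature B cells. Among the 102 segments that RefSeq does not label as pseudogenes 11 and 9 did in pc-BMACs, 38 and 45 in plasma cells, compared with 88 and 76 in immature B cells. Among the 60 pseudogenes they were 3 and 3 in pc-BMACs, 6 and 7 in plasma cells, compared with 17 and 13 in immature B cells. Families differed, and those given here were chosen after their values were seen. None of the 33 Igkv4 segments had a peak in pc-BMACs, 6 and 8 did in plasma cells, compared with 31 and 23 in immature B cells. Of the 13 Igkv1 segments none had a peak in pc-BMACs, 5 in each plasma cell library and 9 in each immature B cell library. The 3 Igkv10 segments had 2 and 2 with a peak in pc-BMACs, 3 and 3 in plasma cells, compared with 3 and 3 in immature B cells. None of the 19 Igkv13 segments had a peak in any library.

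All 6 libraries called 14 regions of the V kappa stretch. The widest, chr6:67531006-67533518, is one of those outside the array of V segments and overlaps no gene in the table. It had 536 and 223 bp in pc-BMACs, 410 and 1152 bp in plasma cells, compared with 2513 and 2209 bp in immature B cells. Next came Igkv19-93 at chr6:68735664-68737483, with 225 and 226 bp in pc-BMACs, 641 and 606 bp in plasma cells, compared with 1820 and 948 bp in immature B cells. At both, the pc-BMAC means were below the plasma cell means and those below the immature B cell means. The other 3 of the 5 widest were chr6:70102266-70103667, Igkv8-21 at chr6:70314469-70315713 and Igkv10-95 at chr6:68680067-68681115. At Igkv8-21 the ranges overlapped between immature B cells and each other population, with 781 and 905 bp in pc-BMACs, 627 and 757 bp in plasma cells, compared with 1222 and 737 bp in immature B cells.

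Against pc-BMACs, 42 of 96 V kappa regions were plasma-cell-only (43.8%, background 9.46%) and 141 of 258 immature-B-only (54.7%, background 24.1%). Against plasma cells, 83 of 256 were immature-B-only (32.4%, background 19.0%). The pc-BMAC-only ones were 1 of 96 against plasma cells (1.04%, background 8.42%) and 1 of 258 against immature B cells (0.388%, background 10.3%). The 42 plasma-cell-only V kappa regions against pc-BMACs were led, by the width of the merged region, by Igkv12-46 (chr6:69764192-69765621), Igkv1-110 (chr6:68270194-68271617), Igkv12-89 (chr6:68834572-68835930), Igkv12-44 (chr6:69814311-69815536) and Igkv4-51 (chr6:69681051-69682224). All 5 had peaks in immature B cells 1 and 2, and they led the 141 immature-B-only V kappa regions against pc-BMACs as well. These widths are mostly set by immature B cells 1, and by plasma cell peaks alone Igkv12-44, at 708 and 763 bp, was above Igkv12-46. Igkv12-46 had no peak in pc-BMACs, 662 and 668 bp in plasma cells, compared with 1430 and 1158 bp in immature B cells. Of the 83 immature-B-only V kappa regions against plasma cells the widest were chr6:68976239-68977099, chr6:69136602-69137144, chr6:70160352-70160882, Igkv6-23 (chr6:70260143-70260659) and Igkv5-43 (chr6:69823097-69823608). The single pc-BMAC-only V kappa region against plasma cells, chr6:69148684-69148965, had 201 and 237 bp in pc-BMACs and 227 and 150 bp in immature B cells. The single one against immature B cells, chr6:69125629-69126095, had 467 and 357 bp in pc-BMACs and 199 bp in plasma cells 2.

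In the heavy chain locus, Ighm (chr12:113418826-113422730) overlapped no peak in any library, the IgM+ immature B cells included. Ighd (chr12:113407535-113416324) held 1 peak, of 189 bp at chr12:113410896-113411084 in pc-BMACs 1. The single region of the J stretch, chr12:113425354-113429119, lies in the interval between Ighm and Ighj4, where the intronic enhancer is known to be, and reaches into Ighj3. It was called in all 6 libraries, with 2207 and 1363 bp in pc-BMACs, 2823 and 1901 bp in plasma cells, compared with 3766 and 1623 bp in immature B cells, and the ranges overlapped. Ighj4 itself was covered in pc-BMACs 1 and both immature B cell libraries, and Ighj3 in part in immature B cells 1. Ighj1 and Ighj2 were under no peak.

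The 3' part, below Igha, held 7 regions, and pc-BMACs had 5 and 6 of them, plasma cells 3 and 3, and immature B cells 4 and 4. This side of the locus is known for its cluster of enhancers, the 3' regulatory region. Regions at chr12:113221171-113225254, chr12:113226247-113229387 and chr12:113244157-113245643 were called in all 6 libraries. The third of them was even, with 1330 and 1344 bp in pc-BMACs, 1300 and 1302 bp in plasma cells, compared with 1487 and 1261 bp in immature B cells. The pc-BMAC libraries alone called chr12:113220389-113220978, 35.2 kb beyond Igha, with 590 and 512 bp, and chr12:113253776-113254319, 1.89 kb beyond Igha, with 473 and 544 bp. These were the only 2 regions of the 3 loci called in both pc-BMAC libraries and in no other. The immature B cell libraries alone called chr12:113240021-113241900, with 1880 and 1430 bp. A region of 1131 bp at chr12:113231596-113232726 was called in pc-BMACs 2 alone.

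Among the heavy chain constant genes 10 regions were called, 5 and 4 of them in pc-BMACs, 3 and 2 in plasma cells, compared with 9 and 7 in immature B cells. Within Igha, which encodes the constant part of IgA, the region chr12:113257209-113257650 had 206 and 227 bp in pc-BMACs, none in plasma cells, compared with 442 and 373 bp in immature B cells. The region chr12:113362376-113362811, between Ighg3 and Ighd, showed the same calls, with 379 and 315 bp in pc-BMACs and 401 and 344 bp in immature B cells. Both were thus called in pc-BMACs and not in plasma cells. Its neighbour chr12:113366348-113366906 was missing from plasma cells 2 alone. Between Ighg2b and Ighg1, chr12:113320841-113321739 went the other way, with no peak in pc-BMACs, 484 and 520 bp in plasma cells, compared with 899 and 693 bp in immature B cells. In the same interval chr12:113314337-113315447 was called in all 6 libraries. Its peaks covered 431 and 401 bp in pc-BMACs, 193 and 289 bp in plasma cells, compared with 1111 and 353 bp in immature B cells. Regions on either side of Ighe, the IgE constant gene, at chr12:113265131-113265364 and chr12:113275177-113275513 were called by the immature B cell libraries alone, in both. Immature B cells 1 alone called chr12:113277799-113278012 and chr12:113326540-113326728, the second of which touches Ighg1, an IgG constant gene. Ighe, Ighg2b, Ighg2c and Ighg3 themselves overlapped no peak.

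The D stretch held 5 regions, with 2 and 0 called in pc-BMACs, 0 and 0 in plasma cells, compared with 3 and 2 in immature B cells. Only chr12:113483557-113484140 was called in both libraries of a population, with 584 and 295 bp in immature B cells. Immature B cells 1 alone called chr12:113476221-113476458 and chr12:113482997-113483449. The region chr12:113484823-113484972 was called in pc-BMACs 1 alone, and chr12:113487782-113488007 in pc-BMACs 1 and immature B cells 2.

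Of the 19 V heavy regions none was called in pc-BMACs, 6 and 11 were called in plasma cells, compared with 17 and 13 in immature B cells. Both plasma cell libraries and neither pc-BMAC library called 5 of the 12 regions called in these 4 libraries (41.7%, background 9.46%). The widest, chr12:114981527-114982186, had 332 and 431 bp in plasma cells, compared with 660 and 413 bp in immature B cells. The others were chr12:114182713-114183077, chr12:115527313-115527664, chr12:115605000-115605313 and chr12:114612149-114612387, the last of which overlaps Ighv1-11. Against pc-BMACs 12 of 18 regions were immature-B-only (66.7%, background 24.1%). Among them was Ighv1-27 (chr12:114804618-114805244), with 627 and 310 bp in immature B cells and 239 bp in plasma cells 2. Also among these 12 were chr12:114609234-114609664 and chr12:114609812-114610213. The 3 immature-B-only regions against plasma cells, of 19 (15.8%, background 19.0%), were that last one, chr12:115604346-115604628 and chr12:114562563-114562721. V heavy segments seldom lay near a peak. Of 184 segments, 0 and 0 had one within 500 bp in pc-BMACs, 1 and 3 in plasma cells, compared with 5 and 4 in immature B cells, and 3 of the 19 regions overlapped a segment. V heavy and V kappa segments thus had unequal shares near a peak in these lists, 2.72% and 64.8% in immature B cells 1, and the part of the strain difference was not tested.

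In the lambda locus both constant regions were called in all 6 libraries. The region chr16:19061517-19067715 spans Iglc1, Iglj1, Iglc3 and Iglj3, with 2021 and 3417 bp of peaks in pc-BMACs, 2340 and 1328 bp in plasma cells, compared with 6137 and 2266 bp in immature B cells. Its ranges overlapped, and Iglc1 itself was under a peak in immature B cells 1 alone. At chr16:19198413-19201623, over Iglc2 and Iglj2, peaks covered 2021 and 1942 bp in pc-BMACs, 890 and 896 bp in plasma cells, compared with 2712 and 2121 bp in immature B cells. Both plasma cell libraries were the lowest there. Among regions called in the 4 libraries compared, plasma cells were so narrower than pc-BMACs at 51.9% and than immature B cells at 58.4%. Iglc2 itself lay under a peak in the immature B cell libraries alone, at 100% and 99.4% of its 317 bp, while Iglj2 was covered in all 6. The V segments Iglv1 (chr16:19084100-19085800) and Iglv3 (chr16:19240772-19242168) were called in all 6 libraries. Iglv2 (chr16:19259997-19261151) was missing from plasma cells 1 alone, with 694 and 319 bp in pc-BMACs, 150 bp in plasma cells 2 and 1155 and 497 bp in immature B cells.

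Within 50 kb on the 3' side of a lambda constant gene 10 regions were called. Those at chr16:19026634-19028314, chr16:19146151-19147150, chr16:19152330-19153582 and chr16:19178651-19180437 were called in all 6 libraries. The region chr16:19050781-19053775 was also called in all 6, with 239 and 150 bp in pc-BMACs, 496 and 440 bp in plasma cells, compared with 2995 and 1386 bp in immature B cells. Its 3 ranges did not overlap, and the order was that of the V kappa calls. Over regions called in the 4 libraries compared, such narrower widths were found at 8.81% for pc-BMACs against plasma cells. Against immature B cells they were found at 30.5% for pc-BMACs and 58.4% for plasma cells. The region chr16:19059598-19060158 was called with 553 and 561 bp in pc-BMACs and 464 and 447 bp in plasma cells, and in neither immature B cell library. Against this, chr16:19164193-19164580 had peaks in the pair of immature B cell libraries and nowhere else. The region chr16:19185250-19186461 was missing from plasma cells 2 alone, and chr16:19043176-19043545 and chr16:19172251-19172475 were called in immature B cells 1 alone.

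Outside the lambda segments and these 3' stretches lay 17 further regions, called 5 and 7 times in pc-BMACs, 8 and 7 times in plasma cells and 14 and 8 times in immature B cells. The region chr16:19236492-19237088, within the lncRNA gene Gm35545, had 417 and 325 bp in pc-BMACs, 597 and 376 bp in plasma cells and no peak in immature B cells. The region chr16:19217664-19218783, over the start of the same gene and the last window printed above, had 1120 and 568 bp in immature B cells and no peak in pc-BMACs or plasma cells. These 2 regions of the gene had opposite calls in immature B cells and the other populations. Plasma cells and immature B cells shared chr16:19010267-19011121, which pc-BMACs lacked.

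**Figure D5:**
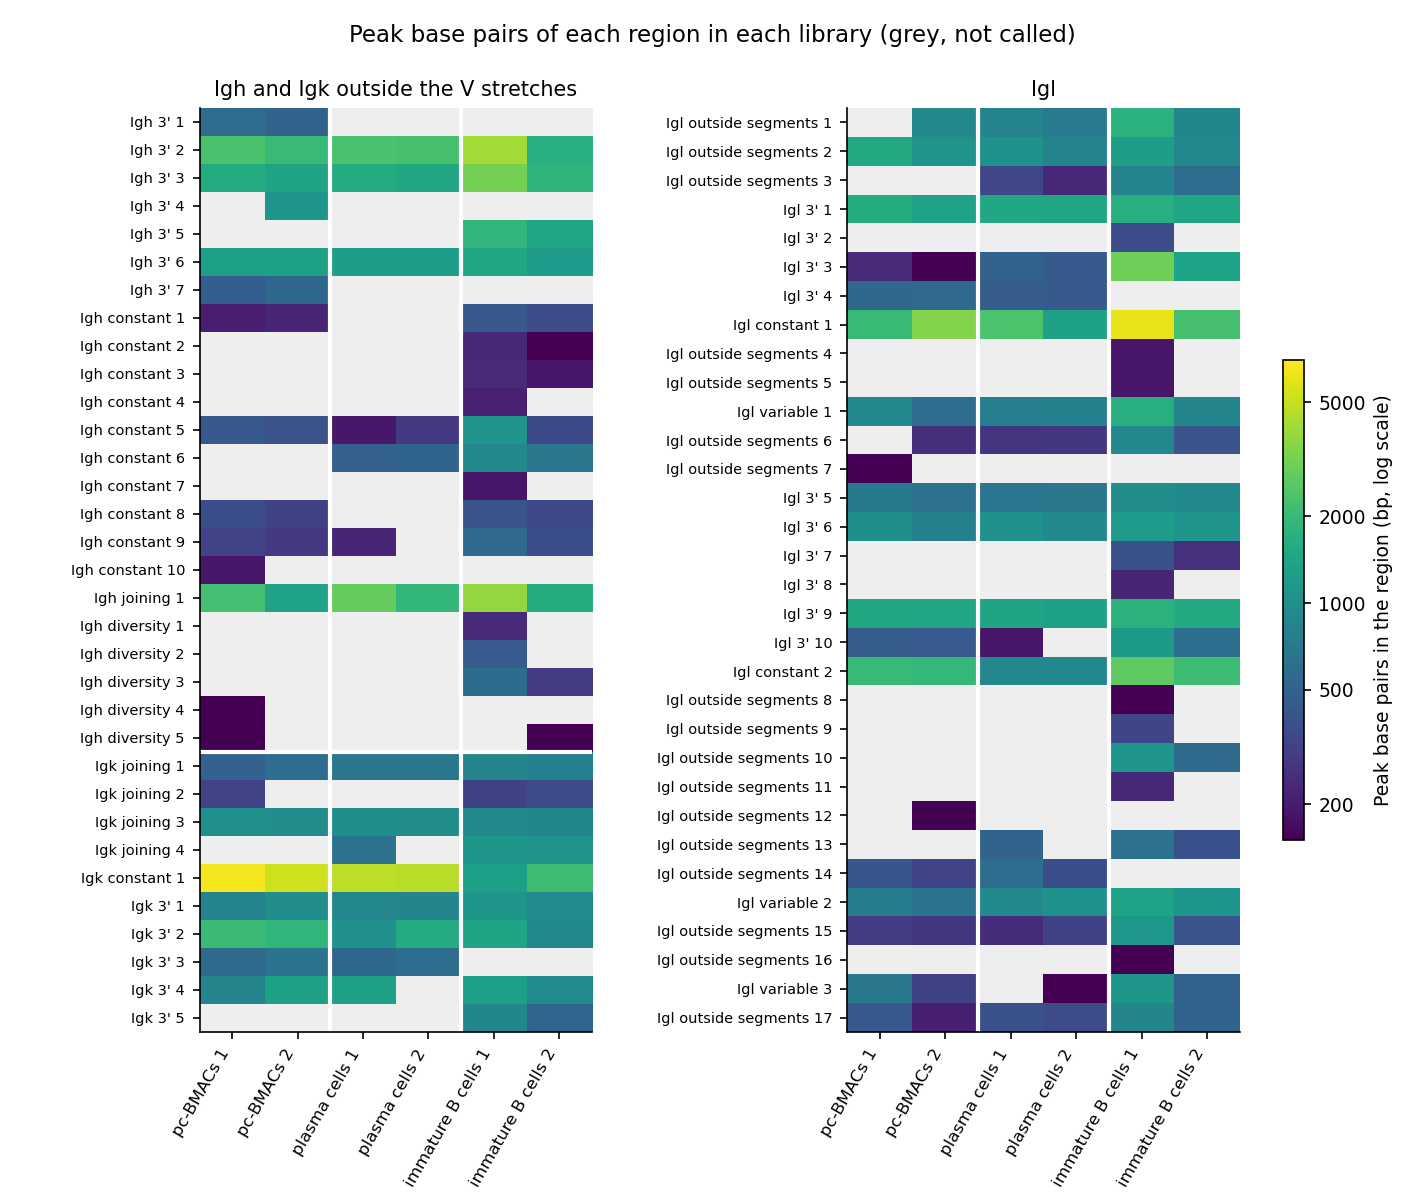
Peak base pairs (colour, log scale, grey where no peak was called) of each region outside the V heavy and V kappa stretches (rows, numbered by rising position within each part) in each library (columns). The Igkc region, Igk constant 1, is widest in the pc-BMAC libraries at 6672 and 5289 bp, and Igh 3' 1 and Igh 3' 7 are called in pc-BMACs alone.

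Among regions called in all 4 libraries of a comparison, widths were also counted where the 2 populations did not overlap. Against plasma cells, pc-BMACs were wider at 10 of 39 regions (25.6%, background 51.9%) and narrower at 9 (23.1%, background 8.81%). Widths were then divided by each library's median peak base pairs at the 20468 regions called in all 6 libraries. The counts became 5 (12.8%, background 25.7%) and 25 (64.1%, background 30.8%). Against immature B cells, pc-BMACs were wider at 3 of 43 regions (6.98%, background 17.6%) and narrower at 21 (48.8%, background 30.5%), and at 5 (11.6%, background 28.1%) and 23 (53.5%, background 28.3%) after dividing by the median. Plasma cells were wider than immature B cells at 2 of 89 regions (2.25%, background 6.06%) and narrower at 65 (73.0%, background 58.4%), and at 10 (11.2%, background 28.3%) and 51 (57.3%, background 30.5%) after dividing by the median.

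Genes of immunoglobulin assembly, transcription and secretion were set beside the loci as a list of 27, of which 23 had a region within 100 kb. Between pc-BMACs and plasma cells their 195 regions included 14 pc-BMAC-only (7.18%) and 21 plasma-cell-only ones (10.8%), near the backgrounds of 8.42% and 9.46%. Between pc-BMACs and immature B cells 32 of 240 were pc-BMAC-only (13.3%, background 10.3%) and 60 immature-B-only (25.0%, near the background of 24.1%). Between plasma cells and immature B cells 21 of 225 were plasma-cell-only (9.33%, background 6.35%) and 40 immature-B-only (17.8%, near the background of 19.0%). The 5 genes that follow were picked after their values were seen. Ell2, an elongation factor that favours the secreted form of the heavy chain, had 16 and 14 of its 19 regions called in pc-BMACs, 10 and 7 in plasma cells, compared with 5 and 4 in immature B cells, the reverse of the order of the loci. Jchain, the joining chain of polymeric IgM and IgA, had 3 of 3 regions called in each pc-BMAC and plasma cell library and 1 and 0 in immature B cells. Rag1, a recombinase subunit, had 0 and 0 of 4 called in pc-BMACs, 0 and 1 in plasma cells, compared with 4 and 2 in immature B cells. Igll1, a surrogate light chain component whose gene lies on the same chromosome as Igl, had 0 and 0 of 3 called in pc-BMACs, 3 and 2 in plasma cells, compared with 3 and 3 in immature B cells. Pax5, a B lineage factor, had 7 and 5 of 20 called in pc-BMACs, 10 and 8 in plasma cells, compared with 15 and 14 in immature B cells.

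The T cell receptor loci, which these cells are not known to use, ran in the same order when summed. Of their 41 regions 2 and 2 were called in pc-BMACs (4.88% each), 15 and 15 in plasma cells (36.6% each), compared with 33 and 30 in immature B cells (80.5% and 73.2%). Over all merged regions the shares were 54.7% and 47.4%, 51.8% and 50.5%, and 74.1% and 64.8%. Of the 3 loci Trg did not follow this order between the last 2 populations, with none of its 5 regions called in pc-BMACs, 3 and 4 in plasma cells, compared with 3 and 3 in immature B cells. Between pc-BMACs and plasma cells none of 17 was pc-BMAC-only (background 8.42%), and 11 were plasma-cell-only (64.7%, background 9.46%). The order of the summed immunoglobulin loci was thus not particular to them.

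Of 1513 protein-coding genes with at least 10 regions, those whose 6 counts of called regions were most like the summed counts of the 3 loci were Uaca, Gadd45g, Tle3, Auts2 and Nrxn2, with Pearson r of 0.997 to 0.998 over the 6 libraries, against a median of 0.715. The 6 points share the length of each list. Uaca had 0 and 0 of 14 regions called in pc-BMACs, 2 and 3 in plasma cells, compared with 14 and 9 in immature B cells.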

How the data were processed

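ATAC-seq peak lists of 6 libraries, 2 per population, were used. The submitters' processing notes name Bowtie2 2.3.3, HOMER 4.10, bedtools and mm10, with roles and settings not given in the sources used here. Every row the authors deposited has a score of 1000, which was not used, and no counts were used, so each region is called or not called in a library. Peaks are at least 150 bp wide. Columns of other samples numbered 0.

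Peaks were merged at 1 bp of overlap with Python 3.11.15, pandas 2.3.3 and numpy 2.4.6, and any overlapping peak of a library made a call. The merging and counting were tested on simulated lists. Boundaries of the variable, diversity, joining, constant and 3' parts came from the RefSeq segments on GRCm38, and a region spanning a boundary went to the part of its midpoint. The V stretches run to the edge of each locus window. Regions of other genes were assigned to the nearest protein-coding gene within 100 kb. Calls in both libraries of one population with none in the other made a region group-only, and their share was set beside the same share of all merged regions, with no test over 2 libraries against 2. Peak base pairs are the bases of a region under a library's peaks.

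Every region of the constant, joining, diversity and 3' parts was to be named, and of the V stretches the 5 widest per pattern. The printed windows, chosen after the calls were seen, were all those of the promoter table that overlap a member. 1 B cell marker is not reported here. The members, lists and rules were chosen with earlier results of these data known.

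Alternatives were a 50% cover rule, the 34070 widest peaks of each list, merging of peaks up to 100 bp apart, and leaving out each library. Widths over each library's median at the regions called in all 6 libraries were added after the data were seen.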

Additional observations from a re-analysis of the deposited data

How the results depend on the processing

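Which population had more regions of its own did not change in any of the 3 comparisons under any alternative run. With at least 50% of a region covered, plasma-cell-only regions against pc-BMACs numbered 21 (19.6%, background 7.2%) and regions called in all 6 libraries 15. With the 34070 widest peaks of each list, immature-B-only regions numbered 85 against pc-BMACs (40.5%, background 15.9%) and 43 against plasma cells (20.4%, background 10.2%). Plasma-cell-only regions against immature B cells then numbered 5 (2.37%, background 9.99%). Merging peaks up to 100 bp apart gave the main counts. Leaving out each library in turn (of the populations compared) gave 7 to 14 pc-BMAC-only and 53 to 73 plasma-cell-only regions between these populations. Between pc-BMACs and immature B cells it gave 6 to 11 and 168 to 266, and for plasma cells against immature B cells the ranges were 3 to 6 and 100 to 192. With 1 library left in a population a region needs fewer calls to be group-only. Regions called in all libraries used numbered 36 to 40.

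No paired analysis was possible because the counts come from no test and a region that is group-only over both libraries is the same in every pairing. Libraries whose titles share an R number, the meaning of which is not stated, were compared singly. For pc-BMACs 2 and plasma cells 1, 10 (8.33%) and 64 (53.3%) of 120 regions were called in one alone, against 15.4% and 22.6% over all merged regions. For pc-BMACs 1 and immature B cells 1 these were 13 (3.89%) and 270 (80.8%) of 334, against 17.6% and 39.2%. For plasma cells 2 and immature B cells 2 they were 13 (5.49%) and 114 (48.1%) of 237, against 12.5% and 31.8%.

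Read depth is unknown, so a missing peak is not shown to be closed chromatin. Immature B cells 1, the longest list, held 96 of the 343 regions (28%) that no other library called.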
